A study of Mus musculus with 6 samples.

Results

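The genes described are 7 genes of the p53 response, Trp53inp1, Sesn2, Mdm4, Zmat3, Phlda3, Btg2 and Plk3, and the 2 genes of the Ink4 locus, Cdkn2a and Cdkn2b. They were taken by symbol: a row of the array table counted where its platform annotation gave exactly 1 gene symbol equal to the name, and each of the 9 genes had 1 such row, among 7486 genes with a row of their own. The RNA came from Melan-a, an immortal line of pigmented melanocytes from female C57BL/6 mice, grown with the phorbol ester TPA. The first group was transfected with siDicer, a small interfering RNA against Dicer, and the other with siScr, a control siRNA; all 6 cultures received the same lipid and magnetic transfection reagents and were lysed 24 hours later. Each group held 3 arrays of 1 culture each, from cells at passage 47, 54 and 56 in both groups, and arrays of the same passage carry the same replicate number. The submitters call them biological replicates, all of this single line, so p-values speak only for cultures of this line. In the main fit they rest on the spread of the differences within same-passage pairs, moderated over all probe sets.

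p53 is a transcription factor held low by Mdm2 and Mdm4 and released by DNA damage and other stress, when it switches on genes that stop the cell cycle, dampen growth signals, start DNA repair or lead to cell death. The Ink4 locus encodes inhibitors of the kinases Cdk4 and Cdk6, and from a second reading frame the protein Arf, which blocks Mdm2 and so links the locus to p53. In melanocytes this locus is known as a barrier to endless growth, and its loss is a familiar step in melanoma. Dicer cuts microRNA precursors into mature microRNAs, and the arrays ask which transcripts differ when it is targeted.

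Values are log2 signals of a whole transcript cluster, so a difference of 1 is a doubling of signal on a scale that is compressed for dim probe sets. Levels of different probe sets are not comparable, and no order of levels between genes is given. Array medians lay between 4.58 and 4.64. RNA integrity numbers were 9.7 in the siDicer and 9.8 in the siScr array of passage 54, and 10 in the other arrays. Background was gauged by the probe sets of 407 odorant and pheromone receptor genes, whose 95th percentile was 4.14. All 9 genes had mean levels above it, from 6.44 to 7.72, as did 59.4% of all probe sets. Of 17 listed melanocyte markers, 5 were measured, all above that percentile. Among them was the melanin-synthesis enzyme Tyrp1, at 12.86 ± 0.07 in siDicer and 12.83 ± 0.10 in siScr arrays (SD, n = 3 each). The transcript of Dicer itself and that of p53 were not analysed here, so the groups rest on the labels.

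The start regions of some of these genes are shown because the Ink4 locus has several of them and because 2 of the 7 members with an entry share a motif. They are windows of 300 bases from RefSeq on GRCm38.p6, 250 before and 50 after a transcript start, 5′ to 3′ on the gene's strand, and capitals mark the palindrome TGACGTCA, the cyclic AMP response element. Cdkn2a has 2 windows, one for each of its first exons, while the array has a single probe set for the gene. Trp53inp2, the paralog of Trp53inp1, is included because its transcript fell, as described below; Trp53inp1 and Zmat3 are named only.
Cdkn2a, chr4:89294570-89294869, minus strand: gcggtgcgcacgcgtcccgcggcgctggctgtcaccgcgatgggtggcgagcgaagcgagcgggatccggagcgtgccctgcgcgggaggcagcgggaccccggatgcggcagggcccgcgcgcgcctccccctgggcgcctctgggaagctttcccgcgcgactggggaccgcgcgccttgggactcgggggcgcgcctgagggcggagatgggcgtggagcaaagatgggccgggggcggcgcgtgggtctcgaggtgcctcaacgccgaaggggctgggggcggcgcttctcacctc
Cdkn2a, chr4:89282143-89282442, minus strand: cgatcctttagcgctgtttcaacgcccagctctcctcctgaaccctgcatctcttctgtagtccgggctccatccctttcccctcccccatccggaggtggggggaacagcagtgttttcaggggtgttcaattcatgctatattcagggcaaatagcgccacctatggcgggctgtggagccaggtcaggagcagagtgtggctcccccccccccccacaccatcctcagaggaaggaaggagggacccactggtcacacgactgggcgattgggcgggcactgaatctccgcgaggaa
Cdkn2b, chr4:89310983-89311282, minus strand: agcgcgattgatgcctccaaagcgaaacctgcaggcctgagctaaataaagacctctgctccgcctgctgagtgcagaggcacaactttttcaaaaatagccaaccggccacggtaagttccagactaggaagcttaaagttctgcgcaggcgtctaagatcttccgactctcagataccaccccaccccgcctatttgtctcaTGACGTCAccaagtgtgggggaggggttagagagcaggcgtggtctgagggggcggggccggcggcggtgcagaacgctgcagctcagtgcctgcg
Btg2, chr1:134079106-134079405, minus strand: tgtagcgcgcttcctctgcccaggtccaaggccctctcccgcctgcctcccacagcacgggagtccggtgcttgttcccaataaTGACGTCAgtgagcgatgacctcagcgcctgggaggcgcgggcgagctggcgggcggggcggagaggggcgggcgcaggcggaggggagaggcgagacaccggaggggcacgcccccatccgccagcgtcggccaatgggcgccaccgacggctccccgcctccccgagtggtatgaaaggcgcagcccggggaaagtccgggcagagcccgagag
Sesn2, chr4:132510407-132510706, minus strand: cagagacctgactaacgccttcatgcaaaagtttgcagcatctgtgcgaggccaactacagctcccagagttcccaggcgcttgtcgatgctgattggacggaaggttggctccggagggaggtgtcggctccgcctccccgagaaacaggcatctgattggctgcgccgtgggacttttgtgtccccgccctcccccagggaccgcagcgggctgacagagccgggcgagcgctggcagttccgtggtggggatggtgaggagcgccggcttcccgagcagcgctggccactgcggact
Trp53inp2, chr2:155381606-155381905, plus strand: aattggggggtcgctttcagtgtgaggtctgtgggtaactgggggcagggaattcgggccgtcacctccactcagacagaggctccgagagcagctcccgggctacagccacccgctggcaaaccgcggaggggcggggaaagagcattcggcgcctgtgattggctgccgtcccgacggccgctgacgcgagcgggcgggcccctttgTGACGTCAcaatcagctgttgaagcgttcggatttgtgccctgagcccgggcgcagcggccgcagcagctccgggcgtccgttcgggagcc

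The cyclic AMP response element began at position -166 from the start in Btg2, at -46 in Cdkn2b and at -41 in Trp53inp2. It was found in 2 of 9 windows of the members and in 1.79% of 32851 RefSeq windows of the same length. Both strands were searched. This motif was added after the windows had been read, so its share among the members carries no weight against that of all windows. The p53 half-site, the p53 full site, the TATA box TATAAA and the ATF4 composite site TGATGNAA had no match in the members' windows. The search allowed no mismatch to these patterns. In all windows these 4 motifs occurred at 8.36%, 0.0731%, 13.6% and 3.97%, in the order named. A full site contains half-sites, so those counts overlap. The upstream Cdkn2a window was richer in CG pairs than the downstream one, with 45 against 12.

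Trp53inp1 was lower in siDicer cells, and it was the only one of the 9 genes to pass the test. It encodes a stress-induced protein that p53 activates, that helps p53 promote cell cycle arrest and death, and that also acts in autophagy. Its signal was 7.28, 6.92 and 7.44 in siDicer arrays of passages 47, 54 and 56, against 8.35, 7.78 and 8.19 in siScr arrays. Every siDicer array lay below every siScr array, and the passage 54 array was the lowest of both groups. The change was -0.90 on the log2 scale (standard error 0.07), or 1.86-fold lower (limma with replicate number as a block, adjusted p = 0.0226). Only 2 of the 16383 probe sets fell further. Of all probe sets 0.995% passed this threshold, an adjusted p under 0.05, 0.238% as lower and 0.757% as higher. Groups that did not overlap were found for 8.29% of probe sets with siDicer lower and 7.57% with siDicer higher. Without the block Trp53inp1 kept its change but not its call (adjusted p = 0.0946), and the members past the threshold then numbered 0, with 0.214% of probe sets called and 10.2% at an unadjusted p under 0.05. Without replicate 2 or without replicate 3, each a pair of arrays, the adjusted p of Trp53inp1 in limma was 0.149 and 0.105. None of the 16383 probe sets passed in either fit, with 2171 and 1814 at an unadjusted p under 0.05.

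**Figure D1:**
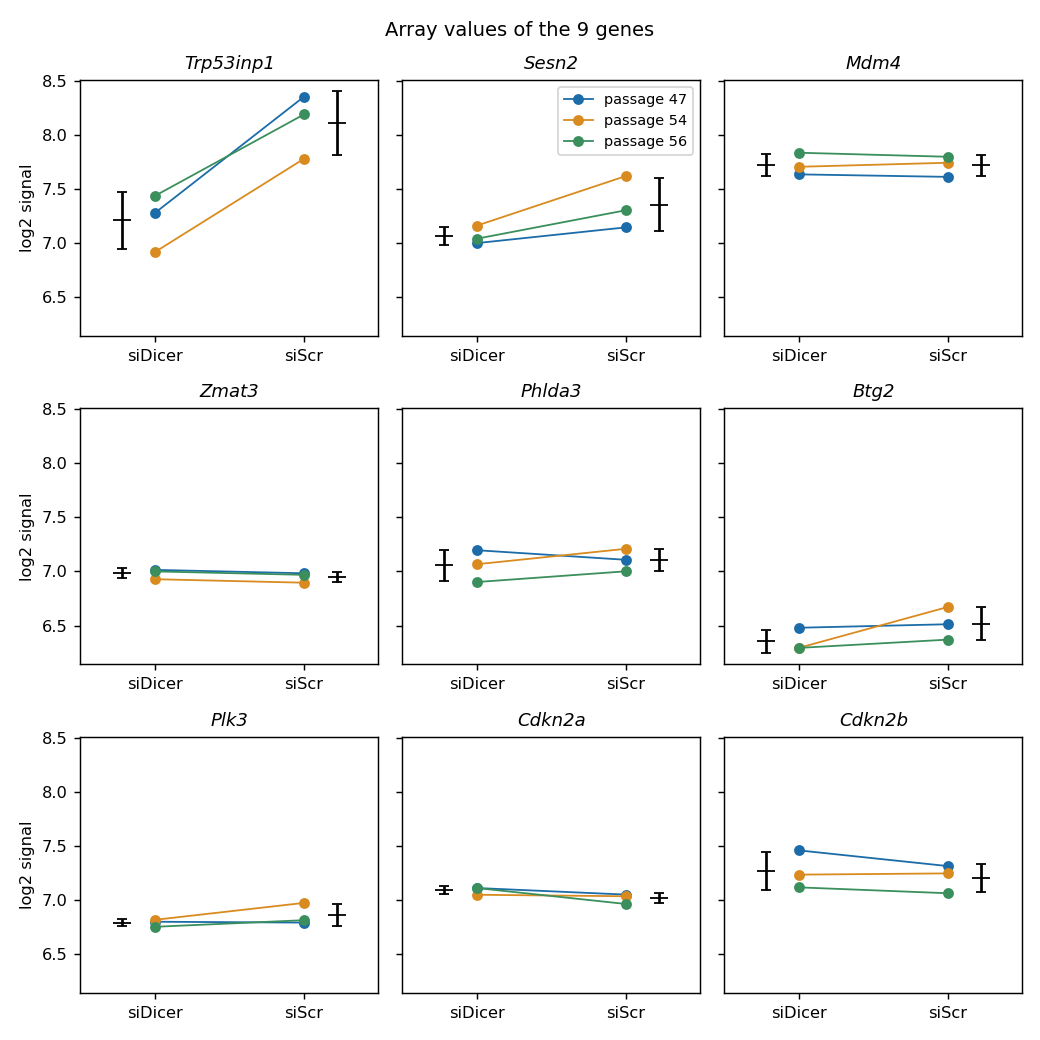
Log2 signal of each of the 9 genes on the 6 arrays, siDicer left and siScr right, with lines joining arrays of the same passage and black bars giving the mean and SD (n = 3). Trp53inp1 runs from 6.92 to 7.44 in siDicer and from 7.78 to 8.35 in siScr, while the other 8 genes overlap between the groups.

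Sesn2 had the next largest change and did not pass the test. Sestrin 2 is induced by p53 and by amino acid and endoplasmic reticulum stress, and it restrains the growth kinase complex mTORC1 and oxidative damage. Its signal was 6.999, 7.16 and 7.04 in siDicer arrays of passages 47, 54 and 56, against 7.15, 7.62 and 7.30 in siScr arrays. It was lower in siDicer within all 3 pairs, a pattern seen in 22.6% of probe sets, and the groups overlapped narrowly. Its change was -0.29 on the log2 scale (standard error 0.07), with a 95% interval from -0.47 to -0.11 (limma, unadjusted p = 0.00691, adjusted p = 0.155). An unadjusted p under 0.05 was reached by 2 of the 9 genes, Trp53inp1 and Sesn2, and by 15.7% of all probe sets (6.85% lower and 8.82% higher). The siScr array of passage 54 stood highest, at 7.62, and the within-pair difference was largest there, at -0.46, against -0.15 at passage 47 and -0.26 at passage 56.

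Btg2, an antiproliferative gene that responds to p53 and to growth factors, was the third member lower within all 3 pairs. It was at 6.48, 6.29 and 6.29 in siDicer arrays, against 6.51, 6.67 and 6.37 in siScr arrays of the same passages. The groups overlapped, and most of the change of -0.16 came from passage 54, where the difference was -0.38, against -0.03 and -0.08 in the other pairs (95% interval of the change -0.36 to 0.03, limma, adjusted p = 0.391).

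The remaining p53 genes had smaller changes. Plk3, a polo-like kinase of the stress response, was at 6.80, 6.82 and 6.75 in siDicer arrays, against 6.79, 6.97 and 6.81 in siScr arrays. Its change was -0.07 (95% interval -0.21 to 0.07, limma, adjusted p = 0.601). Phlda3, which holds back the kinase Akt by competing for membrane lipids, was at 7.20, 7.07 and 6.90 in siDicer arrays, against 7.11, 7.21 and 7.002 in siScr arrays. It was higher in siDicer at passage 47 and lower at the later ones, with a change of -0.05 (-0.21 to 0.11, adjusted p = 0.741).

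Zmat3, an RNA-binding zinc finger protein induced by p53, was the steadiest of the 9 genes. It was at 7.01, 6.93 and 7.001 in siDicer arrays, against 6.98, 6.90 and 6.97 in siScr arrays. Each pair differed by 0.03, in the same direction, as for 17.9% of probe sets higher in all 3 pairs. The interval of the change ran from -0.10 to 0.16 (limma, adjusted p = 0.801), and after quantile normalization the change was -0.0057. Mdm4, which binds p53 and blocks its activity, was at 7.64, 7.71 and 7.84 in siDicer arrays, against 7.61, 7.74 and 7.80 in siScr arrays. Its change of 0.01 had an interval from -0.12 to 0.14 (limma, adjusted p = 0.962), and its sign turned after quantile normalization, at -0.012.

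Neither Ink4 gene passed the test. Cdkn2a, whose 2 reading frames give the Cdk inhibitor p16Ink4a and the Mdm2 inhibitor Arf, was at 7.11, 7.05 and 7.11 in siDicer arrays, against 7.05, 7.03 and 6.96 in siScr arrays. It was higher in siDicer within all 3 pairs, but by 0.15 at most, and the groups overlapped narrowly. The change was 0.07 (95% interval -0.06 to 0.21, limma, adjusted p = 0.568). The single probe set does not separate the p16Ink4a transcript from that of Arf.

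Cdkn2b, which encodes the Cdk inhibitor p15Ink4b and is induced by TGF-beta, was at 7.46, 7.23 and 7.12 in siDicer arrays of passages 47, 54 and 56, against 7.31, 7.25 and 7.06 in siScr arrays. The arrays of the 2 groups interleaved, and in both groups the passage 47 array was the highest and the passage 56 array the lowest. The change was 0.06 (-0.08 to 0.20, limma, adjusted p = 0.639). Over the 9 genes the median change was -0.05, with 5 below 0 and 4 above, against a median of -0.01 over all probe sets. For the 7 genes other than Trp53inp1 and Sesn2, the intervals together reached from -0.36 to 0.21.

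**Figure D2:**
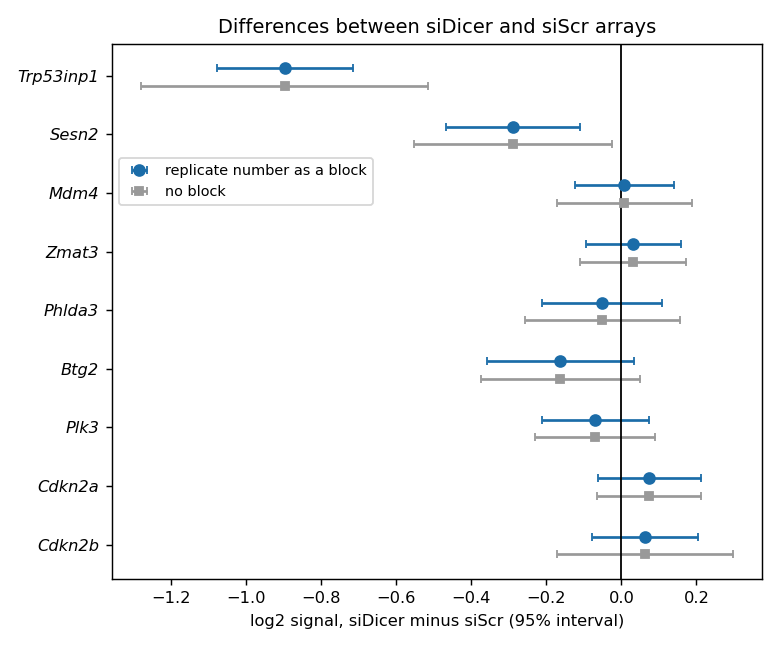
Log2 change of each gene, siDicer minus siScr, with its 95% interval from limma (blue circles, replicate number as a block; grey squares, no block). Trp53inp1 at -0.90 and Sesn2 at -0.29 have intervals below 0 in both fits, and those of the other 7 genes include 0.

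Besides the siRNA, the labels gave culture passage and the RNA integrity number, which was below 10 only at passage 54. The 4 arrays of passages 54 and 56 were set against the 2 of passage 47, with the siRNA as a covariate. Passage and the day of culture cannot be told apart. Arrays of the same passage were counted as separate samples here, with no replicate block, and the earlier group was passage 47 alone. The p-values of this comparison therefore take arrays, not passages, as the unit and may be too small. None of the 9 genes passed, against 0.0061% of probe sets called. Cdkn2b came nearest: its mean was 7.16 in the later and 7.39 in the earlier arrays, a difference of -0.22 with a standard error of 0.08 (limma, unadjusted p = 0.0249, adjusted p = 0.343). An unadjusted p under 0.05 was reached by 1 of the 9 genes and by 12.3% of probe sets. Mdm4 averaged 7.77 in the later and 7.62 in the earlier arrays (adjusted p = 0.417). Sesn2 averaged 7.28 in the later and 7.07 in the earlier arrays (adjusted p = 0.443). Trp53inp1 averaged 7.58 in the later and 7.82 in the earlier arrays (adjusted p = 0.576). These differences moved when either later pair was left out: that of Trp53inp1, -0.24 with all arrays, was -0.0028 without replicate 2 (passage 54) and -0.47 without replicate 3 (passage 56). That of Sesn2, 0.21 with all arrays, was 0.10 without replicate 2 and 0.32 without replicate 3, and that of Cdkn2b was -0.30 and -0.15.

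The siDicer effect was also compared between the later passages and passage 47. The within-pair difference of Trp53inp1 was -1.08 at passage 47, -0.86 at passage 54 and -0.75 at passage 56. The interaction was 0.27 on the log2 scale (limma, unadjusted p = 0.0871, adjusted p = 0.853). No member and 0% of probe sets passed an adjusted p under 0.05 for this interaction, and 6.29% of probe sets had an unadjusted p under 0.05. With 1 pair at passage 47 this comparison rests on few arrays. For 7 of the 9 genes, p53 and Ink4 genes alike, the difference was lowest in the pair of passage 54, as it was for 32.5% of all probe sets.

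**Figure D3:**
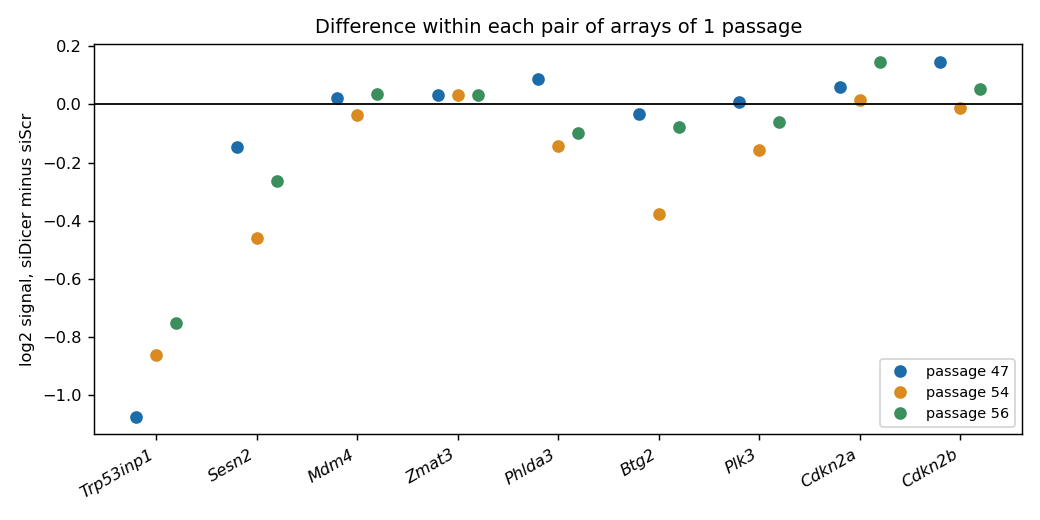
Difference in log2 signal, siDicer minus siScr, within the pair of arrays of passage 47, 54 and 56 for each gene. The 3 points of Trp53inp1 lie between -1.08 and -0.75, those of Zmat3 all at 0.03, and for 7 of the 9 genes, all but these 2, the passage 54 point is the lowest.

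Among relatives of the 9 genes, 3 of 21 listed were measured, and 1 fell, against 0.238% of all probe sets. At an unadjusted p under 0.05 (limma), 2 were lower and 0 higher, against 6.85% and 8.82% of all probe sets. The gene that fell was Trp53inp2, the paralog of Trp53inp1, which acts in autophagosome formation. Its signal was 6.40, 6.28 and 6.39 in siDicer arrays, against 6.75, 6.70 and 6.78 in siScr arrays of the same passages. The groups stood apart by more than the spread within either, and each pair differed by between -0.42 and -0.35. The change was -0.39 with a standard error of 0.05, or 1.31-fold lower (limma, adjusted p = 0.0433; without the block, adjusted p = 0.0638). Without any one of the replicates the adjusted p lay between 0.0658 and 0.205. The other relatives were Cdkn2c, the Ink4 family inhibitor p18Ink4c, at 7.31 ± 0.11 in siDicer and 7.53 ± 0.08 in siScr arrays (SD, n = 3 each; change -0.22, adjusted p = 0.179), and Plk4, the kinase of centriole duplication, with a change of 0.02 (adjusted p = 0.907). The sign of Plk4 turned after quantile normalization.

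Of 40 other p53 targets, 18 were measured and 0 passed, with a median change of 0.02, 9 above 0 and 9 below. At an unadjusted p under 0.05 (limma), 4 were higher and 0 lower, against 8.82% and 6.85% of all probe sets. These were Ephx1, a microsomal epoxide hydrolase, Ddb2, the damage sensor of nucleotide excision repair, Fuca1, a lysosomal fucosidase, and Cd82, a tetraspanin that suppresses metastasis. Ephx1 was at 10.39 ± 0.16 in siDicer and 10.05 ± 0.09 in siScr arrays (SD, n = 3 each), a change of 0.33 (adjusted p = 0.117). Ddb2, Fuca1 and Cd82 had changes of 0.21, 0.23 and 0.20 with adjusted p of 0.147, 0.15 and 0.174, and each was higher within all 3 pairs.

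Of 22 genes listed as p53 regulators, 7 were measured and 0 passed (limma; 0 at an unadjusted p under 0.05), with a median of 0.01 and changes from -0.11 to 0.13. Trp53bp2, a cofactor that steers p53 toward death genes, was at 8.59 ± 0.09 in siDicer and 8.46 ± 0.02 in siScr arrays (SD, n = 3 each; change 0.13, adjusted p = 0.346). Trp53rkb and Trp53rka, kinase genes of near-identical sequence that the array may not separate, had changes of -0.11 and -0.11 (adjusted p = 0.476 and 0.509). Of 16 autophagy genes listed for the Trp53inp proteins, 2 were measured and 0 passed (limma; 0 at an unadjusted p under 0.05). Map1lc3a, of the ubiquitin-like family that coats autophagosomes, and Atg4c, a protease that processes that family, had changes of -0.07 and 0.04 (adjusted p = 0.629 and 0.747).

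Downstream of the Ink4 proteins, 6 of 24 genes of the CDK, RB and E2F list were measured. Of these, 1 fell at the adjusted threshold, as did 0.238% of all probe sets. At an unadjusted p under 0.05 (limma), 3 were lower and 0 higher, against 6.85% and 8.82% of all probe sets. All 6 had a change below 0, E2f1 by 0.01, with a median of -0.21, and 55.6% of all probe sets had a change below 0. The fall was that of Ccne2, cyclin E2, which partners Cdk2 at the start of S phase. It was at 6.52, 6.85 and 6.96 in siDicer arrays, against 7.05, 7.26 and 7.31 in siScr arrays of the same passages. The groups did not overlap, and passage 47 was lowest in both (change -0.43, standard error 0.06, limma, adjusted p = 0.0433; without the block, adjusted p = 0.272; after quantile normalization, adjusted p = 0.0542). Leaving out any one replicate also ended the call, with adjusted p from 0.0783 to 0.199. Ccna2, cyclin A2, and Rbl1, the pocket protein p107, had changes of -0.33 and -0.32 and did not pass (adjusted p = 0.117 and 0.118). E2f1 was at 7.92 ± 0.01 in siDicer and 7.93 ± 0.07 in siScr arrays (SD, n = 3 each; adjusted p = 0.958).

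Of 24 neighbours and regulators of the Ink4 locus, 10 were measured and 0 passed, with a median of -0.00077. At an unadjusted p under 0.05 (limma), 1 was higher and 1 lower, against 8.82% and 6.85% of all probe sets. Id1, an inhibitor of basic helix-loop-helix factors that represses Cdkn2a, was at 8.90 ± 0.09 in siDicer and 9.21 ± 0.18 in siScr arrays (SD, n = 3 each; change -0.31, adjusted p = 0.14). Klhl9, a substrate adaptor of a cullin ligase, and Mtap, which salvages methylthioadenosine, had changes of 0.19 and 0.09 (adjusted p = 0.202 and 0.449).

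Of 25 stress and immediate early genes, 10 were measured and 0 passed (limma; 0 higher and 2 lower at an unadjusted p under 0.05, against 8.82% and 6.85% of all probe sets), with a median of -0.02. Those 2 were Chac1, which degrades glutathione, and Trib3, a pseudokinase, both known targets of the stress factor ATF4. Chac1 was at 5.90, 6.20 and 6.04 in siDicer arrays, against 6.19, 6.63 and 6.17 in siScr arrays (change -0.28, adjusted p = 0.155). Trib3 was at 6.38, 6.63 and 6.46 in siDicer arrays, against 6.43, 7.10 and 6.63 in siScr arrays (change -0.23, adjusted p = 0.28). For both, the siScr array of passage 54 was the highest of the 6. Errfi1, a feedback inhibitor of the EGF receptor, had a change of 0.17 (adjusted p = 0.321).

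**Figure D4:**
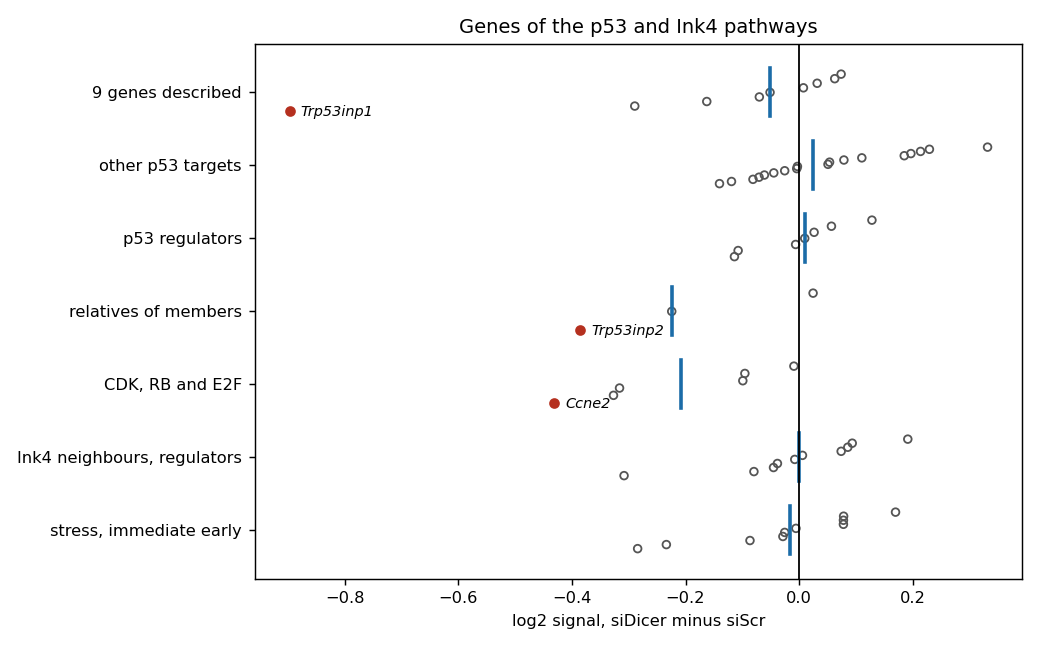
Log2 change, siDicer minus siScr, of each measured gene in the 9 genes described and in 6 related lists, with filled red points for an adjusted p under 0.05 in limma with the block, open points for the rest, and blue bars for each list's median. Trp53inp1, Trp53inp2 and Ccne2 are the filled points, and medians run from -0.22 for relatives to 0.02 for other p53 targets.

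The genes nearest in pattern were sought for Trp53inp1 and Sesn2, among 476 named probe sets with a range of at least 0.5 log2 units. The measure was the mean absolute difference over the 6 arrays after subtracting each gene's mean. Nearest to Trp53inp1 was Pmp2, a lipid-binding protein of peripheral myelin, at a mean difference of 0.06. Pmp2 was at 7.56, 7.14 and 7.64 in siDicer arrays, against 8.60, 7.98 and 8.61 in siScr arrays of the same passages. C1ql3, a secreted C1q-like protein, and Ugcg, the enzyme that makes glucosylceramide, followed at 0.17 and 0.18. The changes of these 3 genes were -0.95, -0.59 and -0.54, a direction that choosing them by likeness over the same arrays already set.

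Pmp2 is also one of the Schwann cell markers, of which 2 of 9 were measured. The other, Cdh19, a cadherin of that lineage, rose by 0.55 (limma, adjusted p = 0.0304; without the block, adjusted p = 0.138; without replicate 2 or 3, 0.149 and 0.134). The summed log2 level of the pair ran from 15.4 to 16.4 in siDicer arrays and from 15.8 to 16.7 in siScr arrays. The part of other cells in the fall of Trp53inp1 was not tested, and in bulk cultures fewer cells of a type cannot be told apart from less RNA per cell. Nearest to Sesn2 were Spata5, an AAA ATPase, Hax1, a mitochondrial survival factor, and Srm, the spermidine synthase, at mean differences of 0.04, 0.04 and 0.05. Their changes were -0.23, -0.25 and -0.26, likewise set by the choice.

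**Figure D5:**
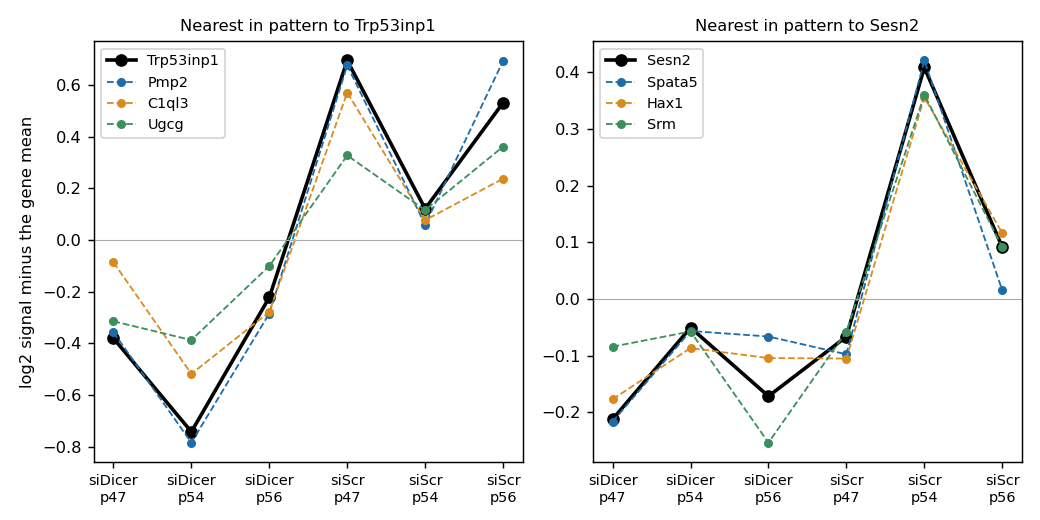
Log2 signal minus each gene's mean over the 6 arrays (siDicer left, siScr right, p for passage) for Trp53inp1 and Sesn2 (black) and the 3 genes nearest to each in pattern (dashed). The genes were chosen for this likeness; Pmp2 follows Trp53inp1 at a mean difference of 0.06, and Spata5 follows Sesn2 at 0.04.

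Among melanocyte markers, 1 of 5 measured passed: Mreg, a melanosome transport gene, rose by 0.62 (limma, adjusted p = 0.0435; without the block, 0.0877; after quantile normalization, 0.0682; without replicate 2 or 3, 0.149 and 0.152). No fibroblast marker passed among 6 measured. Postn and Col5a1 had changes of 0.25 and 0.19, the other 4 had changes below 0, and the median of the list was -0.03. Prrx1, at -0.11, was below the gauge in mean level. Immune markers had 0 of 9, with Fcer1g, C1qa and C1qb at -0.25, -0.29 and -0.20, and the leukocyte gene Ptprc at 2.84 in siDicer and 2.85 in siScr arrays, below the gauge. The summed log2 level of the 9 immune markers, 6 of them above the gauge, ran from 38.6 to 39.2 in siDicer and from 39.6 to 40.0 in siScr arrays, so these sums did not overlap between the groups. Keratinocyte markers had 0 of 4, with Lor and Flg at -0.08 and -0.10, and Ivl below the gauge. Their summed level ran from 21.62 to 21.87 in siDicer and from 21.95 to 22.08 in siScr arrays, also without overlap. Endothelial markers had 0 of 3, with Tie1 at -0.07, and Tek and Sele below the gauge. The summed level of the melanocyte markers ran from 50.5 to 51.9 in siDicer and from 50.2 to 51.2 in siScr arrays, so it overlapped. The sums of the fibroblast and endothelial markers overlapped too. Of all probe sets taken singly, 8.29% had every siDicer array below every siScr array, and no such share was computed for sums. The part of the immune or keratinocyte sums in the results on the 9 genes was not tested. At an unadjusted p under 0.05 in limma, 2 fibroblast markers were higher, 3 immune markers lower, and 0 of the keratinocyte or endothelial markers differed. Over all probe sets, 8.82% were higher and 6.85% lower at that p. At the adjusted threshold 0.757% of all probe sets were called higher, as Mreg was.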

How the data were processed

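The deposited values are log2 signals per transcript cluster of mouse Clariom D arrays, labelled with the WT PLUS chemistry per the labels' protocols. Per the submitters' processing notes the authors used Affymetrix Expression Console; neither its version nor the way arrays were normalized is stated in those notes. Values were used as deposited, and shares of all probe sets refer to the 16383 in the deposited values. Of 16383 probe sets, 7530 carried 1 symbol (a symbol repeated in a cell counted once), 455 several and 8398 none; 230 symbols were updated through Entrez numbers, and 7439 named probe sets lay on chromosomes 1 to 4, so lists were measured in part. Normalization that equalises arrays would hide a shift shared by most transcripts.

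The fit was limma 3.58.1 in R 4.3.3 (lmFit, eBayes) over all probe sets, siDicer minus siScr, with replicate number as a block and Benjamini-Hochberg adjustment at 0.05. The numbers go with cell passage in the labels, and deviations from group means of same-numbered arrays correlated across probe sets (r = 0.44, 0.41 and 0.24), so they pair the samples. An exact test over 3 pairs cannot go below p = 0.25, so single-gene permutation tests were not used. The fits were tested on simulated data. For changes of 0.5, 0.75 and 1 log2 units, the blocked fit recovered 29.5%, 71.5% and 82.5%, against 32%, 81% and 95% without the block. At a change of 1, the false calls were 1.2% and 1.55% of all calls. Precision is limited by the number of arrays.

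The members, the gene lists, the design and the alternatives were chosen with earlier results of these data known. Named genes are the 9 members, in each list those past the threshold or else the 3 of smallest p, and the 3 nearest in pattern to Trp53inp1 and to Sesn2; Tyrp1, E2f1, Ptprc and the other genes named in a list with a call were added after their values were seen, as was Cd82, the fourth by p of its list. Alternatives were no block, quantile normalization, median centring, a level filter, probe sets with 1 symbol, array weights, eBayes with trend and leaving out each pair.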

Additional observations from a re-analysis of the deposited data

How the results depend on the processing

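Over the 10 alternatives run, 83 of 90 values of the 9 genes kept their direction and their side of the threshold. This count says little, because 8 of the 9 genes had no call to lose. Dropping the block, the level filter, the table with 1 symbol and the trend also leave the change itself as it was by construction. The 3 values that lost a call were all of Trp53inp1, the only member called, and 4 values of other members changed sign. The changes of Trp53inp1 lay between -0.97 and -0.81 throughout. With the 2 siRNA groups unpaired, that is with no replicate block, 35 probe sets and 0 members passed, against 163 and 1 with the block, and Trp53inp1 (-0.90) lost its call. Leaving out one pair gave 0 to 157 probe sets and 0 to 1 members, Trp53inp1 from -0.97 to -0.81 and Mdm4 from -0.0072 to 0.0304; fewer arrays enter those fits. Quantile normalization gave 84 probe sets and changes of -0.012 for Mdm4, -0.0057 for Zmat3, -0.015 for Plk4 and 0.014 for Sele. Median centring gave 0.0053 for Sele. With a pair left out, Plk4 ran from -0.0782 to 0.105, Ivl from -0.142 to 0.00747 and Sele from -0.0433 to 0.0175. The level filter gave 388 probe sets, the table with 1 symbol 281, eBayes with trend 302, and a fold of at least 1.5 gave 37. For passage, 19 probe sets passed without replicate 2 and 111 without replicate 3, against 1 in all arrays, and 0 members each time; Plk3 turned to -0.0045 after quantile normalization and ran from -0.012 to 0.10 with a pair left out. Of 260 list medians and counts, 236 stayed within their limits. No gene had another row to try. For the other shifts the cause was not tested.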

Other observations

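Mir34a, the gene of a microRNA that p53 is known to induce, was looked up after the lists had been described. Its probe set was at 3.14 ± 0.06 in siDicer and 3.12 ± 0.05 in siScr arrays (SD, n = 3 each), below the receptor gauge of 4.14, with a log2 change of 0.02 (limma, adjusted p = 0.902).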
